A study of Mus musculus with 24 samples.

Results

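The genes described here are 51 genes of mitosis and cytokinesis, the division of the chromosomes and of the cell. They were chosen by name as known mitosis genes, with earlier results of these data known. Each of the 51 was found on 1 row among the 55401 genes counted, all are protein coding, and all 51 were among the 11717 genes that passed the filter on low counts. Their mRNA was measured in macrophages grown from the bone marrow of wild-type C57BL/6J mice in medium conditioned by L929 cells, which secrete M-CSF, the growth factor that makes such macrophages divide. The cells received S14, which is sphingomyelin d18:1/14:0, at 30 µM for 18 h or 3 h, or lipopolysaccharide (LPS), a component of the bacterial outer membrane, at 100 ng/mL for the same times, or were left untreated for the same times (the headers of the count table call these libraries Veh). Each of the 6 groups holds 4 libraries, 24 in all, and all groups share the strain, the wild-type genotype and the medium. The labels do not say whether the 4 libraries of a group came from separate animals or cultures, so the p-values measure the spread between these libraries, which may be technical.

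A cell enters mitosis when the kinase Cdk1 is switched on by cyclins A2, B1 and B2. Aurora and Polo-like kinases then build the spindle and attach the chromosomes to it through kinetochores, and the spindle checkpoint holds back the anaphase-promoting complex until every chromosome is attached. That complex, with its activator Cdc20 and its ubiquitin-conjugating enzyme Ube2c, destroys securin (Pttg1) and the cyclins, after which the chromosomes part and the central spindle directs cytokinesis. Most of these genes are transcribed late in the cell cycle, so that their mRNA is low in cells that do not divide. Their promoters are known for a short element, the CHR, which the repressor complex DREAM occupies in resting cells and the activators MYBL2 and FOXM1 in dividing cells, often beside CCAAT boxes bound by the factor NF-Y.

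Promoter windows of 5 members are printed to show this layout: the most abundant member with a window in 5 of the 7 roles used below. The windows come from RefSeq on GRCm38.p6 and hold 250 bases before and 50 bases after the transcription start. They run 5′ to 3′ along the gene's strand. Capitals mark the CHR letters TTTGAA and the CCAAT box, each on either strand.
Cdk1: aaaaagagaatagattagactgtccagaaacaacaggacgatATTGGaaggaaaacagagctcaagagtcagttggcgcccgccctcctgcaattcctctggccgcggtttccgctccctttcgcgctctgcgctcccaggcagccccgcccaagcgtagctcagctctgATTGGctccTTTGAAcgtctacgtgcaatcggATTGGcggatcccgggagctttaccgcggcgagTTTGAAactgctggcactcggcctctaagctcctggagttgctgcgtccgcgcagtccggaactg
Pttg1: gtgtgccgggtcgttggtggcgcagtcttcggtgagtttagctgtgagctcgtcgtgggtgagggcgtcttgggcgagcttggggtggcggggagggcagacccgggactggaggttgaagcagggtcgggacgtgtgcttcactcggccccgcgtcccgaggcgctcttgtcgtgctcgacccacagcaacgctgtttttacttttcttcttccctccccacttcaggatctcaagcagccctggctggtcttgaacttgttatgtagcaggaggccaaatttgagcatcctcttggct
Nusap1: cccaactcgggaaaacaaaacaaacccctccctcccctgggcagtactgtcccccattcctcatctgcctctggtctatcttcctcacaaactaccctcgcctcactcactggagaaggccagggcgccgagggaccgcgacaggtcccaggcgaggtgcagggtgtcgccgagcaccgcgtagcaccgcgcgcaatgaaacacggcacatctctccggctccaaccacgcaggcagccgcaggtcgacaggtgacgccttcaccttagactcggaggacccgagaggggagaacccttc
Kif23: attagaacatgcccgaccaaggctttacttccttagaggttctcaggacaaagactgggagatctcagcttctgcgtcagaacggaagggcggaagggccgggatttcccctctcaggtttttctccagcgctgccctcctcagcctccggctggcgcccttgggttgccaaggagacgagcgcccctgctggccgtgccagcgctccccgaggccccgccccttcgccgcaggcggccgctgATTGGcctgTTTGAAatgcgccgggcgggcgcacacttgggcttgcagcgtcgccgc
Top2a: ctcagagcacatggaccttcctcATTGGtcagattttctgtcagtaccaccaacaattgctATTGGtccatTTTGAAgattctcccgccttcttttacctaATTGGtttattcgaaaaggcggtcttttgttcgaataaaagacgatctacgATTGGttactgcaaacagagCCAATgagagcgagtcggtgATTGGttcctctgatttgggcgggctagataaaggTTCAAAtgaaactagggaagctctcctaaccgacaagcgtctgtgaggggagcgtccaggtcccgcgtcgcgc
The Cdk1 window lies on chr10:69352863-69353162 (minus strand), the Pttg1 window on chr11:43425932-43426231 (minus strand), the Nusap1 window on chr2:119618048-119618347 (plus strand), the Kif23 window on chr9:61946750-61947049 (minus strand) and the Top2a window on chr11:99024140-99024439 (minus strand). The Cdk1 and Top2a windows hold 2 TTTGAA each, the Kif23 window holds 1 at 2 bases after the start, and the Pttg1 and Nusap1 windows hold neither of the marked motifs. The GENCODE annotation starts Pttg1 further upstream, at base 43426251, outside the window printed.

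Of the 51 members, 42 had a RefSeq window, and 3 of those had a second start, which gave 45 windows. TTTGAA on either strand was in 36 of these 45 windows (80.0%), against 17.9% of all 32851 windows of the same length. It lay within 60 bases of the start in 32 windows (71.1%), against 5.5% of all windows. CCAAT on either strand was in 75.6% of the members' windows, against 37.4% of all. The second CHR form, TTTAAA, was in 20.0% against 13.2%. Letters of sites for E2F, the factor family of the replication phase, were rarer: TTGGCGC in 15.6% against 2.45%, TTCGCGC in 4.44% against 1.59%, and TTTCGCGC, which contains the shorter one, in 2.22% against 0.323%. Pttg1 and Nusap1 were among 6 members with a window that held neither CHR form. Presence of the letters describes the sequence and does not show that a factor bound there.

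**Figure D1:**
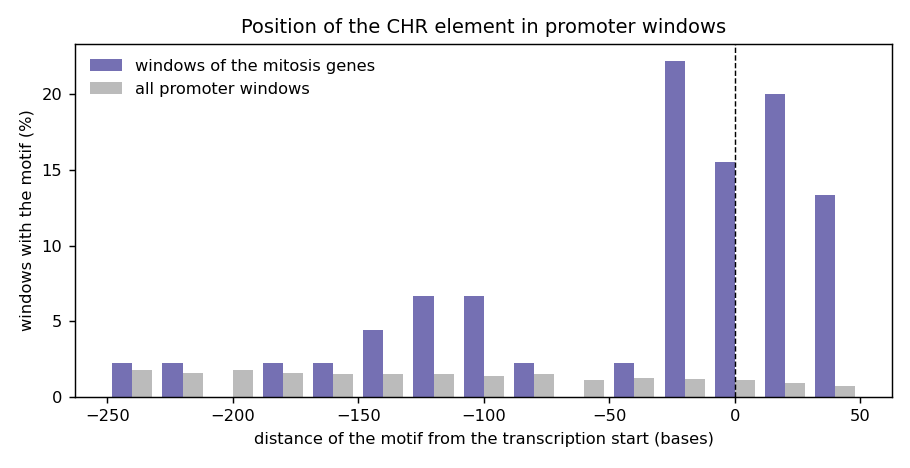
Share of promoter windows (percent, y axis) with the CHR letters on either strand in each stretch of 20 bases, by distance from the transcription start (x axis, bases; dashed line at the start), for the 45 windows of the mitosis genes and for all 32851 windows. In the mitosis genes the matches gather near the start, with 71.1% of windows having one within 60 bases, against 5.5% of all windows.

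The values start from whole read counts that the authors deposited, obtained by 3′ end sequencing, which reads the end of each polyadenylated transcript. Library totals ran from 3334182 to 6350251 reads. Levels are given as CPM, a read count relative to the total, of libraries scaled to each other by TMM, a method that assumes that the typical gene does not change. Means carry the SD over the 4 libraries of a group, and log2 fold changes carry their standard error, written ±. A gene was called changed at an adjusted p under 0.05 in edgeR's quasi-likelihood test over all 11717 genes. Spike-in RNAs, added in an amount that the sources used here do not give, allow another scaling. It moved the median over all tested genes, in log2 units, by 0.11 for S14 and 0.34 for LPS at 3 h, by -0.97 and -0.64 at 18 h, by -0.23 and -0.32 for S14 against LPS at 3 h and 18 h, and by 0.83 for untreated cells at 18 h against 3 h. Untreated replicate 4 at 18 h had the smallest share of spike-in reads (0.0134%, against up to 0.0595% in the other libraries). LPS replicate 1 at 3 h and LPS replicate 4 at 18 h had the next smallest shares, 0.0178% and 0.0218%, and stayed in. Leaving out untreated replicate 4 made the shifts above 0.12, 0.34, -0.47, -0.15, -0.22, -0.32 and 0.33. Results that rest on the scaling are therefore given with both. The summed level of 8 macrophage markers at 18 h was 32100.4 to 33187 CPM with S14, 16039 to 24689 CPM with LPS and 31723 to 45779 CPM untreated, and no marker was at 0 reads. The sum of 8 neutrophil markers was 2.47 to 9.21, 41.2 to 50.4 and 1.74 to 5.61 CPM in the same 3 groups. Of the 2 neutrophil markers tested 1 rose with S14 and 1 with LPS at 18 h. With S14 4 of the 8 (Elane, Ltf, Ly6g and Mpo) were at 0 reads, and with LPS 3 of the 8 (Elane, Mpo and Ngp). For 6 progenitor markers it was 0.674 to 3.09, 0.224 to 1.76 and 0.875 to 4.74 CPM, and for 6 stromal markers 0.412 to 1.99, 15.6 to 25.1 and 0 to 1.58 CPM. Both stromal markers tested rose with LPS at 18 h (median 5.2), and 3 of the 6 (Col1a2, Col3a1 and Pdgfra) were at 0 reads there. For 5 T cell markers it was 7.00 to 11.0, 0.895 to 4.37 and 9.10 to 17.3 CPM, with Cd3e and Cd3g at 0 reads, and Cd3d too with LPS and untreated. The 1 T cell marker and the 1 progenitor marker tested fell with LPS at 18 h (-2.18 and -2.23) and were not called with S14. Of the 8 macrophage markers 3 rose and 3 fell with LPS at 18 h, and 3 rose and 0 fell with S14. Lists of 5 B cell, 5 dendritic cell and 5 erythroid markers reached at most 2.02, 3.15 and 0.449 CPM in any library of the 18 h groups. Their part in the results below was not tested.

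Both stimuli lowered nearly all mitosis genes at 18 h, and LPS lowered them further. The summed level of the 51 genes was 862, 854, 748 and 777 CPM in the S14 libraries, 501, 551, 455 and 441 CPM in the LPS libraries, and 1994, 2146, 2620.3 and 2424 CPM in the untreated libraries at 18 h. All 4 libraries of each stimulus lay below all 4 untreated ones with either scaling, and LPS below S14 with TMM, while the LPS and S14 ranges overlapped after spike-in scaling (389 to 702 CPM with LPS, 566 to 764 CPM with S14). Of the LPS libraries replicate 4 alone lay in the S14 range, as the others were at 389, 477 and 416 CPM after spike-in scaling. With TMM, Pttg1, which rose with LPS, averaged 159 CPM and Smc4 141 CPM of the mean LPS sum of 487 CPM at 18 h. With S14 they averaged 82.7 and 200 CPM of a mean sum of 810 CPM. A sum without these genes was not made. In bulk RNA, fewer dividing cells and less mRNA of the mitosis genes per cell cannot be told apart. At 3 h the sums were 3749, 3277, 3395 and 3243 CPM with S14, 3177, 2896, 2989.8 and 2722 CPM with LPS, and 4270.4, 3749, 3757 and 3605 CPM untreated. With TMM the LPS libraries lay below both other groups at 3 h. S14 replicate 1 lay within the untreated range there, and the other S14 libraries lay below it. After spike-in scaling the 3 h groups overlapped, at 2928 to 3861 CPM with S14, 2673.5 to 5297 CPM with LPS and 2836 to 4459 CPM untreated.

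**Figure D2:**
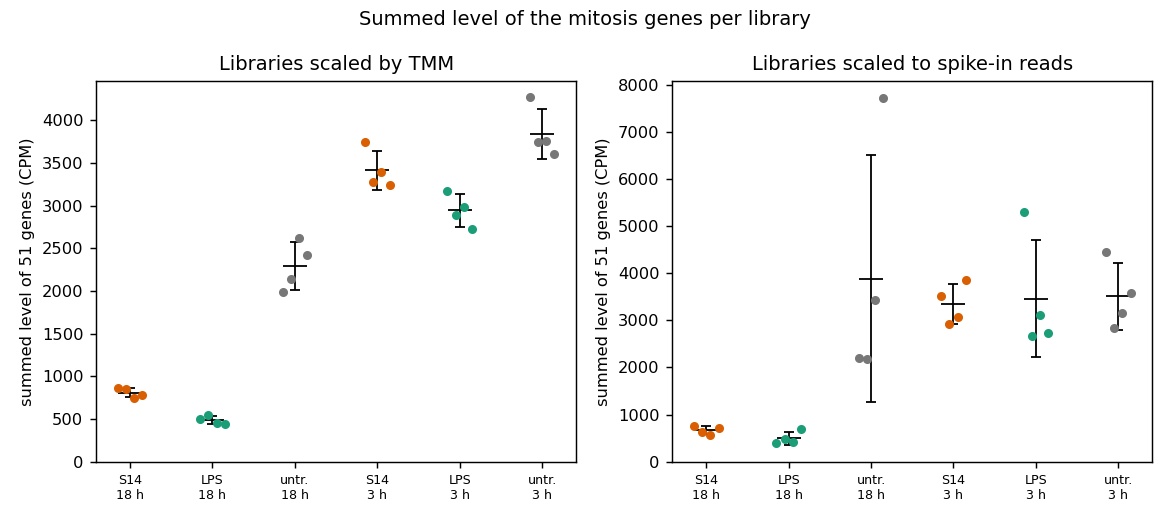
Summed level of the 51 mitosis genes in each library (points; CPM, y axis) by group (x axis), with the mean and SD of 4 libraries, after TMM scaling (left) and after scaling to spike-in reads (right). With either scaling all S14 and LPS libraries at 18 h lie below all untreated ones at 18 h, while the untreated groups at 18 h and 3 h are apart with TMM and overlap after spike-in scaling, where replicate 4 at 18 h is the highest library at 7708 CPM. The LPS group at 3 h lies below the other 3 h groups with TMM and overlaps them after spike-in scaling.

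S14 against untreated cells at 18 h asks which mitosis genes the lipid changed late. Of 51 members, 49 fell and 1 rose, where 11.6% of all tested genes fell and 12.6% rose. The members' median log2 fold change was -1.84, against -0.02 over all genes, and 48 of the 49 fell by at least 2-fold. In 47 members all 4 S14 libraries lay below all 4 untreated ones. The counts by fold and by separation of libraries were not made over all genes. The gene that rose was Pttg1, and the largest fall was that of Kif2c. Scaled to spike-in reads, 50 members fell and none rose, with or without untreated replicate 4. Over all genes that scaling gave 7533 lower and 106 higher, or 2161 and 130 without that library. The members' median minus that of all genes was -1.87 or -1.82 with spike-in scaling, against -1.82 with TMM. The 1 member not called was Cks2, a small partner of Cdk1, with 3 reads in the S14 group and 18 in the untreated group, a ratio of 4.64 of untreated over S14 (95% counting interval 1.35 to 24.6).

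LPS against untreated cells at 18 h gave 49 members lower and 1 higher, where 28.3% of all tested genes fell and 27.3% rose. The median was -3.65, against -0.04 over all genes, and 47 of the 49 fell by at least 4-fold. All 4 LPS libraries lay below all 4 untreated ones for 49 members and above them for 1, Pttg1. Neither this count nor that by fold was made over all genes. Tpx2 alone was not called. Spike-in scaling gave 50 lower and 1 higher, or 49 and 1 without untreated replicate 4. Over all genes it gave 4526 lower and 695 higher, or 2554 and 1431 without that library.

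The 2 stimuli were set against each other directly at 18 h. With S14, 46 members stood higher than with LPS and 2 stood lower, where 21.3% of all tested genes were higher and 21.3% lower. The median was 1.83, against 0.02 over all genes. The 2 lower with S14 were Pttg1 and Tpx2. Spike-in scaling left 38 higher and 2 lower, or 41 and 2 without untreated replicate 4. Over all genes it gave 519 higher and 1396 lower, or 867 and 2812 without that library.

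At 3 h the stimuli parted. S14 against untreated cells gave 2 lower members and none higher, where 6.2% of all tested genes fell and 9.05% rose, and the members' median was -0.21, against -0.03 over all genes. At an unadjusted p under 0.05 there were 12 of 51, against 24.9% of all tested genes. The 2 were Kif23 (-0.59 ± 0.15, adjusted p = 0.00361) and Cenpf (-0.48 ± 0.17, adjusted p = 0.0486). Neither was called after scaling to spike-in reads. Fitting only the S14 and untreated libraries at 3 h gave 12 lower members and 1 higher, beside 1051 lower and 1311 higher over all genes. LPS against untreated cells at 3 h gave 37 lower and 3 higher, where 30.2% of all tested genes fell and 25.3% rose, with a median of -0.82, against -0.11 over all genes. The 3 that rose were Pttg1, Cenpe and Kif4. Scaled to spike-in reads, 10 fell and 2 rose, or 18 and 3 without the untreated replicate 4 of the 18 h group, while the members' median minus that of all genes was -0.7 in both, against -0.71 with TMM. Over all genes 955 fell and 2341 rose with that scaling, or 1381 and 3290 without that library. In the direct comparison at 3 h, 34 members were higher with S14 than with LPS and 3 were lower, where 23.7% of all tested genes were higher and 22.4% lower. With spike-in scaling 6 were higher and 2 lower, or 14 and 3 without that library. Over all genes 612 were higher and 1620 lower with that scaling, or 1066 and 2413 without that library.

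Untreated cells at 18 h had lower mitosis mRNA than at 3 h with TMM scaling: 42 members fell and none rose, where 19.6% of all tested genes fell and 19.2% rose, with a median of -0.85, against -0.01 over all genes. The largest fall was that of Prc1 (-1.36 ± 0.15, adjusted p = 4.79e-10), and the smallest called was that of Pttg1 (-0.37 ± 0.13, adjusted p = 0.0229). Scaled to spike-in reads none fell and Smc4 alone rose, or 10 fell and none rose without untreated replicate 4. Over all genes 213 fell and 5426 rose with that scaling, or 369 and 2057 without that library. The members' median minus that of all genes was -0.84 with TMM and -0.85 or -0.84 with spike-in scaling, while the fall itself rests on the scaling.

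Responses differed between the times by a test of the difference itself (response at 18 h minus response at 3 h). For S14, 47 members had a lower response at 18 h and none a higher one, where 8.98% of all tested genes were lower and 7.61% higher, with a median difference of -1.64 log2 units. The difference ran from the largest, -2.67 ± 0.24 for Ube2c, to the smallest called, -0.72 ± 0.18 for Smc2 (adjusted p = 3.51e-09 and 0.00277). For LPS, 46 were lower and none higher, where 26.1% of all tested genes were lower and 25.1% higher, with a median of -2.78. Ccnb2 had the largest difference (-7.54 ± 0.44, adjusted p = 1.8e-18), with 2 reads in the LPS group at 18 h. Ube2c again stood far down (-5.63 ± 0.32, adjusted p = 1.36e-14), and Cdca8 moved least among those called (-0.74 ± 0.17, adjusted p = 0.000414). Pttg1 gave no difference between times that passed the test for either stimulus (adjusted p = 0.709 for S14 and 0.836 for LPS). Spike-in scaling gave 50 lower for S14 and 49 for LPS, or 48 and 48 without untreated replicate 4. Over all genes it gave 4095 lower and 20 higher for S14, and 4476 lower and 381 higher for LPS. Without that library the counts were 1391 and 25 for S14, and 3383 and 850 for LPS.

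**Figure D3:**
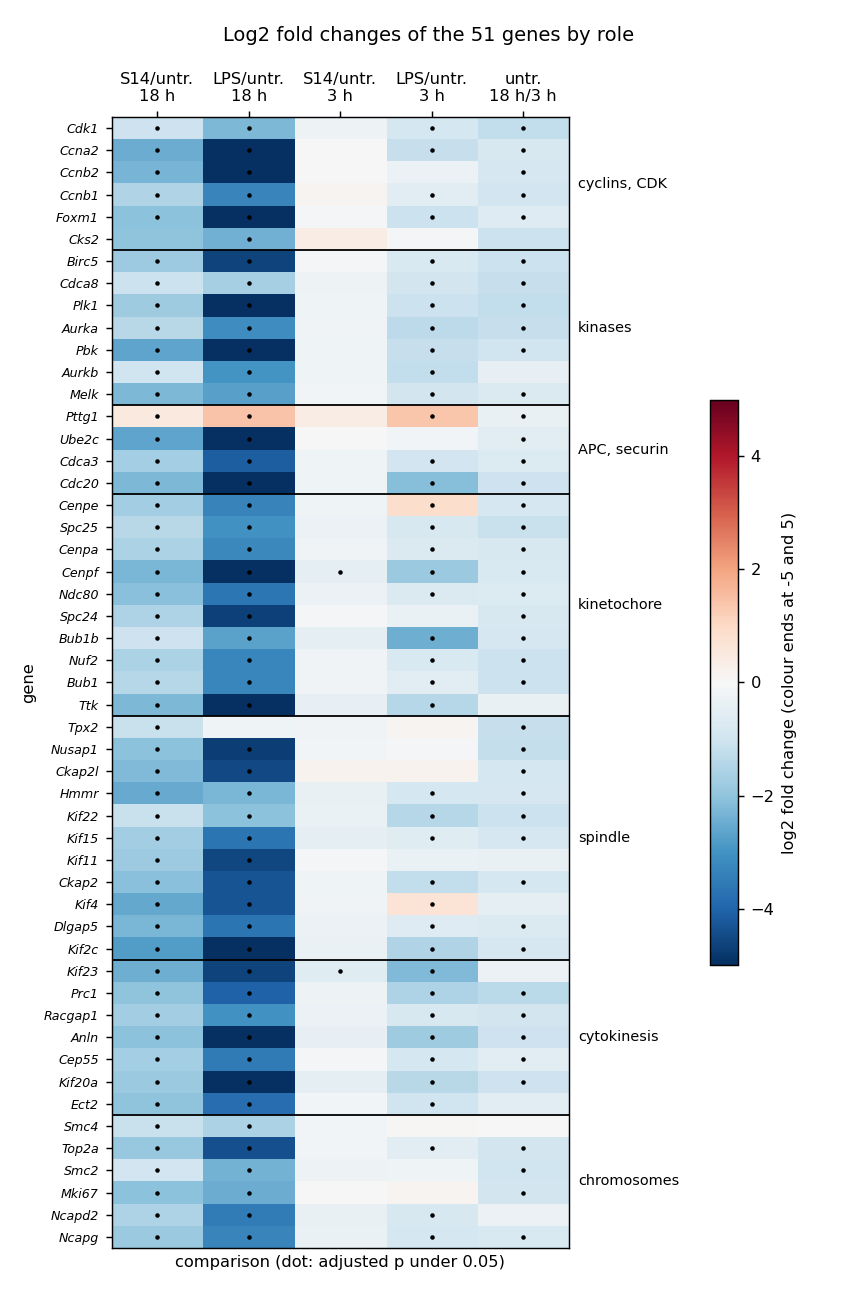
Log2 fold changes (colour, TMM scaling) of the 51 mitosis genes (rows, grouped by role and ordered by mean level) in 5 comparisons (columns), with a dot where the adjusted p was under 0.05. Both 18 h columns are lower for nearly every gene, the column of S14 at 3 h has 2 dots, and Pttg1 is the 1 gene higher with both stimuli at 18 h, a rise with S14 that is not called after scaling to spike-in reads, where its direction turns.

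The first role holds the 6 genes of the mitotic engine: the cyclins Ccna2, Ccnb1 and Ccnb2, the kinase Cdk1, its partner Cks2, and the transcription factor Foxm1, which drives many of the others. At 18 h 5 of them fell with S14 (median -2.04) and all 6 with LPS (median -4.8). At 3 h none was called with S14 and 4 fell with LPS. The counts by role here and below are with TMM scaling and were not made with spike-in scaling. With LPS at 3 h spike-in scaling left 10 of the 51 members lower, or 18 without untreated replicate 4 at 18 h. With TMM 30.2% of all tested genes fell with LPS at 3 h. Cdk1 had 23.9, 11.9, 14.2 and 23.1 CPM with S14, 7.73, 8.30, 8.73 and 6.55 CPM with LPS and 31.4, 41.9, 50.6 and 23.5 CPM untreated at 18 h. The highest S14 library of Cdk1 was just above the lowest untreated one, while every LPS library was below both, and its fold changes were -1.02 ± 0.2 with S14 and -2.24 ± 0.22 with LPS (adjusted p = 0.000212 and 3.96e-10). At 3 h it had 88.6, 75.5, 66.6 and 65.8 CPM with S14, 45.4, 47.1, 44.2 and 53.0 CPM with LPS and 103, 77.9, 93.1 and 76.6 CPM untreated, where the LPS group lay below the others and the S14 and untreated ranges overlapped.

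Ccna2, cyclin A2, which carries cells from replication into mitosis, was at 8.97, 8.64, 6.65 and 5.61 CPM with S14 at 18 h, 0, 0, 0.448 and 0.437 CPM with LPS and 32.5, 44.7, 49.9 and 42.2 CPM untreated. The LPS group held 4 reads of it in all, against 142 with S14 and 1049 untreated. Its fall with S14 was -2.5 ± 0.19 (adjusted p = 1.11e-13), and the ratio of untreated over LPS was 186 (95% counting interval 72.5 to 685). At 3 h Ccna2 stood at 76.7, 68.0, 66.8 and 76.5 CPM with S14, 45.4, 28.7, 33.7 and 22.6 CPM with LPS and 84.1, 75.9, 65.4 and 68.2 CPM untreated, with the LPS libraries below all others. For Ccnb2, cyclin B2, the libraries at 18 h gave 6.78, 9.06, 3.55 and 6.29 CPM with S14, 0, 0, 0.448 and 0 CPM with LPS and 34.3, 29.2, 33.7 and 32.9 CPM untreated. Only 2 reads of Ccnb2 were counted in the LPS group at 18 h, against 122 with S14 and 791 untreated, so its fold rests on few reads: untreated over LPS was 281 (interval 77.5 to 2320) and S14 over LPS was 56 (interval 15.2 to 467). With S14 the change was -2.33 ± 0.18 (adjusted p = 2.41e-13). At 3 h Ccnb2 stood at 58.1, 56.9, 50.6 and 63.1 CPM with S14, 49.8, 49.0, 44.2 and 46.2 CPM with LPS and 70.9, 53.4, 52.6 and 54.9 CPM untreated, where the LPS libraries lay just below all others, and neither stimulus was called. Such intervals cover counting error only.

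With TMM scaling the mitotic kinases and the chromosomal passengers were lower as a whole. All 7 fell with S14 at 18 h (median -1.77) and all 7 with LPS at 18 h (median -3.1). At 3 h all 7 fell with LPS (median -1.09), while none was called with S14. Birc5, or survivin, guides Aurora B to centromeres and to the midzone. It stood at 21.7, 26.1, 19.7 and 20.0 CPM with S14, 3.51, 2.01, 4.92 and 1.97 CPM with LPS and 79.2, 75.6, 83.3 and 68.6 CPM untreated at 18 h. The 3 groups did not overlap, with fold changes of -1.81 ± 0.12 for S14 and -4.61 ± 0.16 for LPS (adjusted p = 1.95e-15 and 8.03e-26). Its 3 h libraries had 164, 158, 149 and 148 CPM with S14, 97.4, 107, 96.9 and 87.5 CPM with LPS and 186, 149, 159 and 159 CPM untreated. Its early fall with LPS (-0.75 ± 0.11, adjusted p = 7.12e-08) was not called after spike-in scaling.

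Plk1, the Polo-like kinase that acts from mitotic entry to cytokinesis, had 11.0, 9.26, 6.65 and 11.2 CPM with S14, 0.703, 1.01, 0.448 and 0.218 CPM with LPS and 31.4, 28.0, 41.4 and 29.4 CPM untreated at 18 h. The 3 groups did not overlap, the LPS group held 10 reads in all, and the changes were -1.77 ± 0.17 with S14 and -5.75 ± 0.28 with LPS (adjusted p = 8.45e-11 and 4.58e-21). At 3 h Plk1 stood at 77.0, 67.7, 55.4 and 64.8 CPM with S14, 36.8, 29.0, 36.7 and 42.8 CPM with LPS and 90.2, 78.8, 74.8 and 65.6 CPM untreated, again with the LPS libraries lowest. Cdca8, or borealin, the partner of survivin, had 23.7, 24.1, 17.9 and 25.1 CPM with S14, 13.6, 14.8, 15.7 and 15.7 CPM with LPS and 42.2, 44.6, 58.7 and 44.3 CPM untreated at 18 h. Its groups did not overlap either, and its changes were -1.06 ± 0.12 with S14 and -1.67 ± 0.13 with LPS (adjusted p = 7.73e-09 and 1.61e-14). At 3 h Cdca8 stood at 105, 82.3, 84.5 and 86.3 CPM with S14, 61.9, 53.8, 52.9 and 57.9 CPM with LPS and 104, 106, 113 and 107 CPM untreated, where the LPS libraries stood below all others.

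The genes around the anaphase-promoting complex split. Of the 4, Ube2c, Cdca3 and Cdc20 fell with both stimuli at 18 h and Pttg1 rose. Ube2c hands ubiquitin to the complex's targets, and its libraries at 18 h held 17.5, 13.2, 17.5 and 18.6 CPM with S14, 2.11, 2.77, 1.12 and 1.75 CPM with LPS and 76.4, 89.0, 100.0 and 153 CPM untreated. The lowest untreated library was far above the highest S14 library, with changes of -2.65 ± 0.18 for S14 and -5.76 ± 0.26 for LPS (adjusted p = 1.12e-11 and 5.73e-17). At 3 h its groups overlapped, at 167, 126, 166 and 165 CPM with S14, 161, 118, 151 and 129 CPM with LPS and 174, 137, 139.7 and 162 CPM untreated, and no call was made. Cdca3, a trigger of mitotic entry that helps to degrade the Cdk1 inhibitor Wee1, had 13.2, 16.7, 14.6 and 15.9 CPM with S14, 3.51, 4.03, 2.24 and 1.75 CPM with LPS and 41.8, 48.1, 57.7 and 49.4 CPM untreated at 18 h. Those 3 groups were apart as well (-1.71 ± 0.15 and -4.11 ± 0.19, adjusted p = 3.43e-12 and 7.51e-22). At 3 h Cdca3 stood at 81.7, 68.9, 60.5 and 59.0 CPM with S14, 44.1, 37.6, 43.5 and 39.2 CPM with LPS and 94.0, 79.5, 72.8 and 68.9 CPM untreated, with the LPS libraries below all others.

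Pttg1 lies on chr11:43420250-43426251 (minus strand) and encodes securin, which restrains separase until anaphase. It rose with LPS where most members fell. At 18 h it had 94.1, 71.0, 93.3 and 72.5 CPM with S14, 161, 179, 158 and 139 CPM with LPS and 79.0, 59.0, 51.2 and 48.5 CPM untreated. At 3 h it had 114, 103, 81.6 and 93.6 CPM with S14, 190.1, 197, 204 and 201 CPM with LPS and 81.0, 71.4, 88.7 and 63.6 CPM untreated. The LPS libraries were above all others at each time, and the S14 and untreated libraries overlapped at each time. With LPS it rose by 1.43 ± 0.13 at 18 h and 1.38 ± 0.13 at 3 h (adjusted p = 3.08e-12 and 6.22e-12), calls that held with spike-in scaling. With S14 the rise at 18 h was 0.48 ± 0.13 (adjusted p = 0.00445), which became -0.43, or -0.07 without untreated replicate 4, and was not called after spike-in scaling. At 3 h S14 gave 0.36 ± 0.13 with an adjusted p of 0.0508, short of the threshold. DESeq2 called it (0.38, adjusted p = 0.0353), as did 7 of the other alternatives run. Set directly against LPS, S14 gave less Pttg1 at 18 h (-0.94 ± 0.12) and at 3 h (-1.02 ± 0.12, adjusted p = 7.19e-08 and 8.83e-09). The search of transcript ends found no copy of Pttg1 in a pseudogene and no exon shared with another gene.

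**Figure D4:**
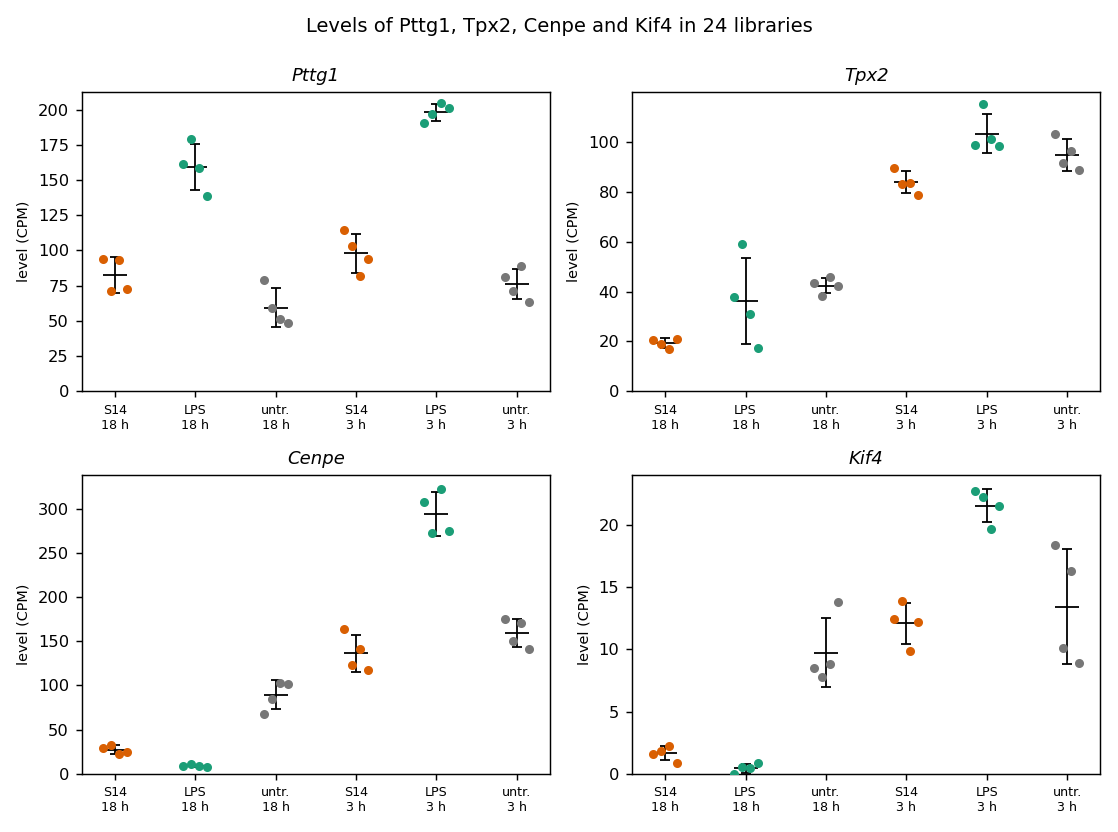
Levels (CPM, y axis) of Pttg1, Tpx2, Cenpe and Kif4 in every library (points) of the 6 groups (x axis), with the mean and SD of 4 libraries, TMM scaling. Pttg1 is highest with LPS at each time, Tpx2 is spread from 17.5 to 58.9 CPM with LPS at 18 h, and Cenpe and Kif4 are highest with LPS at 3 h and lowest with LPS at 18 h. The rise of Pttg1 with S14 at 18 h turns direction after scaling to spike-in reads.

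The 10 kinetochore and checkpoint genes all fell with S14 at 18 h (median -1.59) and all fell with LPS at 18 h (median -3.3). At 3 h Cenpf was the 1 called with S14, and with LPS 8 fell and Cenpe rose. Cenpe lies on chr3:135212537-135273611 (plus strand) and encodes the kinesin that carries chromosomes to the spindle equator. Its 3 h libraries held 164, 123, 141 and 117 CPM with S14, 307, 272, 323 and 274 CPM with LPS and 175, 149.8, 171 and 141 CPM untreated. Its 18 h libraries held 29.1, 32.9, 21.9 and 24.5 CPM with S14, 8.20, 10.8, 8.50 and 7.86 CPM with LPS and 67.9, 85.1, 103 and 101 CPM untreated. With LPS the gene was thus above all untreated libraries at 3 h (0.89 ± 0.11, adjusted p = 1.63e-08) and below all of them at 18 h (-3.34 ± 0.16, adjusted p = 5.68e-21). The difference between the times was -4.23 ± 0.19 (adjusted p = 9.94e-21), and both directions held with spike-in scaling. With S14 at 18 h its change was -1.72 ± 0.13 (adjusted p = 4.06e-13).

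Cenpf, a large kinetochore and nuclear matrix protein, stood at 65.4, 53.4, 68.3 and 53.6 CPM with S14, 24.1, 24.2, 21.8 and 21.3 CPM with LPS and 89.0, 86.9, 79.7 and 78.6 CPM untreated at 3 h. All 4 S14 libraries were below the untreated ones, but its call with S14 was lost with DESeq2's size factors, with the replicate block and after leaving out any 1 of 7 of the 8 libraries compared. With LPS at 3 h its change was -1.87 ± 0.18 (adjusted p = 4.99e-11). By 18 h it had 13.0, 12.1, 4.65 and 10.3 CPM with S14, 0, 1.01, 0.671 and 1.31 CPM with LPS and 38.5, 39.2, 61.2 and 57.2 CPM untreated, without overlap (-2.28 ± 0.2 with S14 and -5.98 ± 0.31 with LPS). Bub1b, or BubR1, which delays anaphase as part of the checkpoint complex, had the largest fall of all members with LPS at 3 h. Its libraries there held 22.5, 24.7, 26.8 and 24.8 CPM with S14, 8.11, 3.90, 8.50 and 4.67 CPM with LPS and 30.4, 36.9, 35.4 and 36.0 CPM untreated, a change of -2.45 ± 0.27 with LPS (adjusted p = 5.43e-10). S14 over LPS at 3 h was 1.96 ± 0.27 (adjusted p = 1.46e-07), and both calls held after spike-in scaling. At 18 h Bub1b had 10.2, 8.85, 9.53 and 8.98 CPM with S14, 3.51, 3.77, 1.57 and 3.06 CPM with LPS and 24.8, 19.4, 25.6 and 6.83 CPM untreated, where untreated replicate 4 lay below the S14 libraries and above the LPS ones. The changes were -1.03 ± 0.25 with S14 and -2.69 ± 0.3 with LPS (adjusted p = 0.00214 and 1.06e-09).

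Spc25, a subunit of the Ndc80 complex that grips microtubules, and Cenpa, the histone H3 variant of centromeres, fell with both stimuli at 18 h. Spc25 had 15.5, 21.4, 14.4 and 14.1 CPM with S14, 3.28, 3.77, 7.39 and 6.33 CPM with LPS and 30.4, 41.7, 56.2 and 44.1 CPM untreated at 18 h, with changes of -1.4 ± 0.18 and -3.04 ± 0.21. Cenpa had 21.3, 12.8, 12.6 and 11.9 CPM with S14, 4.92, 6.29, 3.80 and 3.71 CPM with LPS and 49.2, 45.8, 47.3 and 34.3 CPM untreated, with changes of -1.58 ± 0.15 and -3.24 ± 0.18. In both genes no treated library reached an untreated one at 18 h. Spc25 had 87.6, 88.4, 71.2 and 63.7 CPM with S14, 57.6, 57.7, 49.3 and 51.1 CPM with LPS and 111, 106, 80.8 and 82.2 CPM untreated at 3 h. For Cenpa the 3 h values were 73.4, 66.6, 63.7 and 69.7 CPM with S14, 45.7, 48.5, 44.7 and 46.0 CPM with LPS and 81.2, 75.4, 76.4 and 76.6 CPM untreated, and in both genes the LPS libraries lay below all others.

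Among the 11 spindle genes all fell with S14 at 18 h (median -2.09) and 10 with LPS at 18 h (median -4.3), and at 3 h LPS lowered 6 and raised Kif4. Tpx2 lies on chr2:152847964-152895321 (plus strand) and encodes the factor that activates Aurora A on spindle microtubules. It was the 1 member not called with LPS at 18 h. At 18 h it stood at 20.5, 19.1, 16.8 and 20.9 CPM with S14, 37.9, 58.9, 31.1 and 17.5 CPM with LPS and 43.4, 38.3, 45.7 and 42.2 CPM untreated. The LPS libraries covered a range that held 3 of the 4 S14 and all untreated values, giving -0.23 ± 0.18 for LPS (adjusted p = 0.291), and S14 gave -1.13 ± 0.19 (adjusted p = 6.18e-05). The LPS value rests on single libraries and on the scaling: it was -0.56 (adjusted p = 0.00146) without LPS replicate 2, 0.00 without LPS replicate 4 and -1.02 (adjusted p = 0.00978) with spike-in scaling. Spike-in scaling without untreated replicate 4 did not call it. S14 against LPS at 18 h was -0.9 ± 0.2 (adjusted p = 0.000551). At 3 h its levels were 89.7, 83.0, 83.7 and 78.8 CPM with S14, 98.7, 115, 101 and 98.4 CPM with LPS and 103, 91.4, 96.4 and 88.6 CPM untreated, with neither stimulus called.

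Kif4 lies on chrX:100625737-100727214 (plus strand) and encodes a chromosome-bound kinesin that shapes chromosomes and the midzone. At 3 h it had 12.4, 13.9, 9.91 and 12.2 CPM with S14, 22.7, 22.3, 19.7 and 21.6 CPM with LPS and 18.4, 10.1, 16.3 and 8.94 CPM untreated. Every LPS library was above the untreated ones, which were themselves spread (0.68 ± 0.24, adjusted p = 0.0163). The call was lost without untreated replicate 2 (0.56, adjusted p = 0.0702) or replicate 4 (0.53, adjusted p = 0.0804), and with spike-in scaling (1.02, adjusted p = 0.0656). It held with spike-in scaling when untreated replicate 4 of the 18 h group was left out. Kif4 shares 832 exon bases with Pdzd11, which runs on the other strand and stood at 70.3 ± 4.83 CPM with LPS, against 34.1 ± 2.65 CPM untreated at 3 h. The sources used here do not give the counting's strand setting, and whether reads of Pdzd11 were counted for Kif4 was not tested. At 18 h Kif4 had 1.59, 1.85, 2.22 and 0.898 CPM with S14, 0, 0.503, 0.448 and 0.873 CPM with LPS and 8.52, 7.75, 8.81 and 13.8 CPM untreated. It was lower with S14 (-2.54 ± 0.32) and with LPS (-4.31 ± 0.41), where the LPS group held 8 reads in all. Pdzd11 was higher with LPS at that time too, at 53.0 ± 4.90 CPM, against 29.8 ± 5.01 CPM untreated.

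Kif2c, or MCAK, a kinesin that takes microtubules apart at kinetochores, showed the largest fall with S14 at 18 h. It had 0.997, 1.44, 1.33 and 2.25 CPM with S14, 0.234, 0.503, 0.448 and 0 CPM with LPS and 9.68, 12.0, 10.2 and 9.80 CPM untreated. The change with S14 was -2.79 ± 0.31 (adjusted p = 4.27e-09), and the LPS group held 5 reads in all, a ratio of untreated over LPS of 36.2 (95% counting interval 15.3 to 112). At 3 h Kif2c stood at 17.8, 12.2, 14.3 and 14.1 CPM with S14, 4.06, 7.80, 9.71 and 4.41 CPM with LPS and 16.0, 19.6, 19.1 and 19.4 CPM untreated, with LPS below all others. Nusap1, which bundles spindle microtubules, and Ckap2l, or radmis, a spindle protein, were called at 18 h with both stimuli. Nusap1 stood at 9.37, 8.85, 8.86 and 9.21 CPM with S14, 2.11, 1.26, 1.57 and 0.873 CPM with LPS and 30.8, 39.8, 44.2 and 36.8 CPM untreated at 18 h (-2.06 ± 0.15 and -4.69 ± 0.21). At 3 h Nusap1 stood at 84.8, 73.2, 90.4 and 66.1 CPM with S14, 93.8, 78.5, 78.2 and 76.3 CPM with LPS and 98.9, 83.1, 79.7 and 87.3 CPM untreated, with overlapping groups. Ckap2l had 9.37, 7.82, 6.43 and 8.08 CPM with S14, 1.17, 2.77, 1.12 and 1.31 CPM with LPS and 27.5, 40.3, 43.2 and 34.0 CPM untreated at 18 h (-2.19 ± 0.17 and -4.52 ± 0.23), and neither gene was called at 3 h. At 3 h Ckap2l stood at 82.4, 70.8, 79.5 and 70.5 CPM with S14, 89.8, 67.7, 69.4 and 76.1 CPM with LPS and 78.2, 56.7, 61.0 and 69.7 CPM untreated, again with overlap.

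With TMM scaling the 7 genes of the central spindle and cytokinesis fell together. All 7 fell with S14 at 18 h (median -2), with LPS at 18 h (median -4.04) and with LPS at 3 h (median -1.4). Kif23, or MKLP1, the motor of the centralspindlin complex, was called in each of these and with S14 at 3 h. Its 18 h libraries held 17.9, 16.7, 10.2 and 9.88 CPM with S14, 0.937, 4.03, 3.36 and 3.71 CPM with LPS and 67.4, 69.6, 86.1 and 79.6 CPM untreated. Its 3 h libraries held 59.2, 61.9, 71.5 and 52.7 CPM with S14, 21.9, 15.9, 22.3 and 19.7 CPM with LPS and 107, 86.0, 95.9 and 79.7 CPM untreated. At each time the 3 groups were apart, in the order LPS, S14, untreated. The changes at 18 h were -2.46 ± 0.17 for S14 and -4.64 ± 0.22 for LPS (adjusted p = 1.83e-14 and 5.31e-21), and with LPS at 3 h it was -2.2 ± 0.17 (adjusted p = 1.16e-14), a call that held with spike-in scaling.

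Racgap1, the other subunit of centralspindlin, had 12.8, 14.0, 10.2 and 10.8 CPM with S14, 3.04, 5.28, 4.25 and 7.21 CPM with LPS and 37.2, 41.9, 47.7 and 34.5 CPM untreated at 18 h, with no overlap between groups (-1.75 ± 0.16 and -3.02 ± 0.18). At 3 h Racgap1 stood at 71.8, 66.1, 48.3 and 62.1 CPM with S14, 43.3, 43.2, 47.1 and 39.7 CPM with LPS and 84.5, 75.4, 76.8 and 68.7 CPM untreated. The LPS libraries lay just below all others there. Prc1, which crosslinks the microtubules of the central spindle, had 12.6, 8.64, 6.65 and 7.63 CPM with S14, 1.41, 3.77, 1.57 and 1.97 CPM with LPS and 37.9, 36.8, 39.4 and 28.9 CPM untreated (-2 ± 0.18 and -4.04 ± 0.23). At 3 h Prc1 stood at 88.4, 75.3, 66.6 and 81.9 CPM with S14, 41.4, 25.6, 30.3 and 29.3 CPM with LPS and 109, 80.4, 93.7 and 85.5 CPM untreated, where the LPS libraries lay below all others. Its early fall with LPS was called with either scaling (-1.54 ± 0.15, adjusted p = 1.33e-11).

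The 6 genes of chromosome structure all fell with S14 at 18 h (median -1.71) and with LPS at 18 h (median -2.89), and 3 fell with LPS at 3 h. Top2a, the topoisomerase that untangles sister chromatids, had 59.0, 56.0, 47.2 and 56.6 CPM with S14, 10.8, 12.1, 8.50 and 7.64 CPM with LPS and 176, 192, 266 and 185 CPM untreated at 18 h. At 3 h it stood at 382, 349.6, 358 and 317 CPM with S14, 270.5, 255, 273 and 249 CPM with LPS and 419, 383, 379 and 378 CPM untreated. The 18 h groups were far apart (-1.91 ± 0.11 and -4.4 ± 0.13, adjusted p = 4.39e-18 and 1.78e-28), and at 3 h the LPS group alone stood below the others (-0.57 ± 0.1, adjusted p = 2.75e-06, not called after spike-in scaling).

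Smc4 and Smc2 form the core of condensin, which folds chromosomes for mitosis. Smc4 had 203, 219.8, 187 and 189 CPM with S14, 148, 131, 132 and 151 CPM with LPS and 339.8, 385, 437 and 545 CPM untreated at 18 h, and Smc2 had 39.9, 47.1, 43.9 and 40.0 CPM with S14, 17.8, 20.4, 10.7 and 15.7 CPM with LPS and 74.5, 87.6, 92.0 and 78.1 CPM untreated. At 18 h their groups did not overlap: Smc4 changed by -1.1 ± 0.1 with S14 and -1.6 ± 0.11 with LPS, and Smc2 by -0.96 ± 0.13 and -2.37 ± 0.15. The 3 h values of Smc4 were 402, 365, 413 and 387 CPM with S14, 534, 437, 448 and 374 CPM with LPS and 475, 431, 406 and 414 CPM untreated. Those of Smc2 were 159, 142, 150.5 and 119 CPM with S14, 166, 169.9, 134 and 118 CPM with LPS and 203, 159, 159 and 152 CPM untreated. The groups overlapped at 3 h and neither gene was called there. Mki67, the usual histological marker of dividing cells and named here outside the rule after its values were seen, averaged 16.3 ± 1.55 CPM with S14, 12.3 ± 3.69 CPM with LPS and 67.4 ± 11.9 CPM untreated at 18 h, and 129.9 ± 17.9, 141 ± 6.52 and 128 ± 11.5 CPM in the same order at 3 h. It fell with both stimuli at 18 h (-2.05 ± 0.14 and -2.47 ± 0.15) and was called with neither at 3 h.

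**Figure D5:**
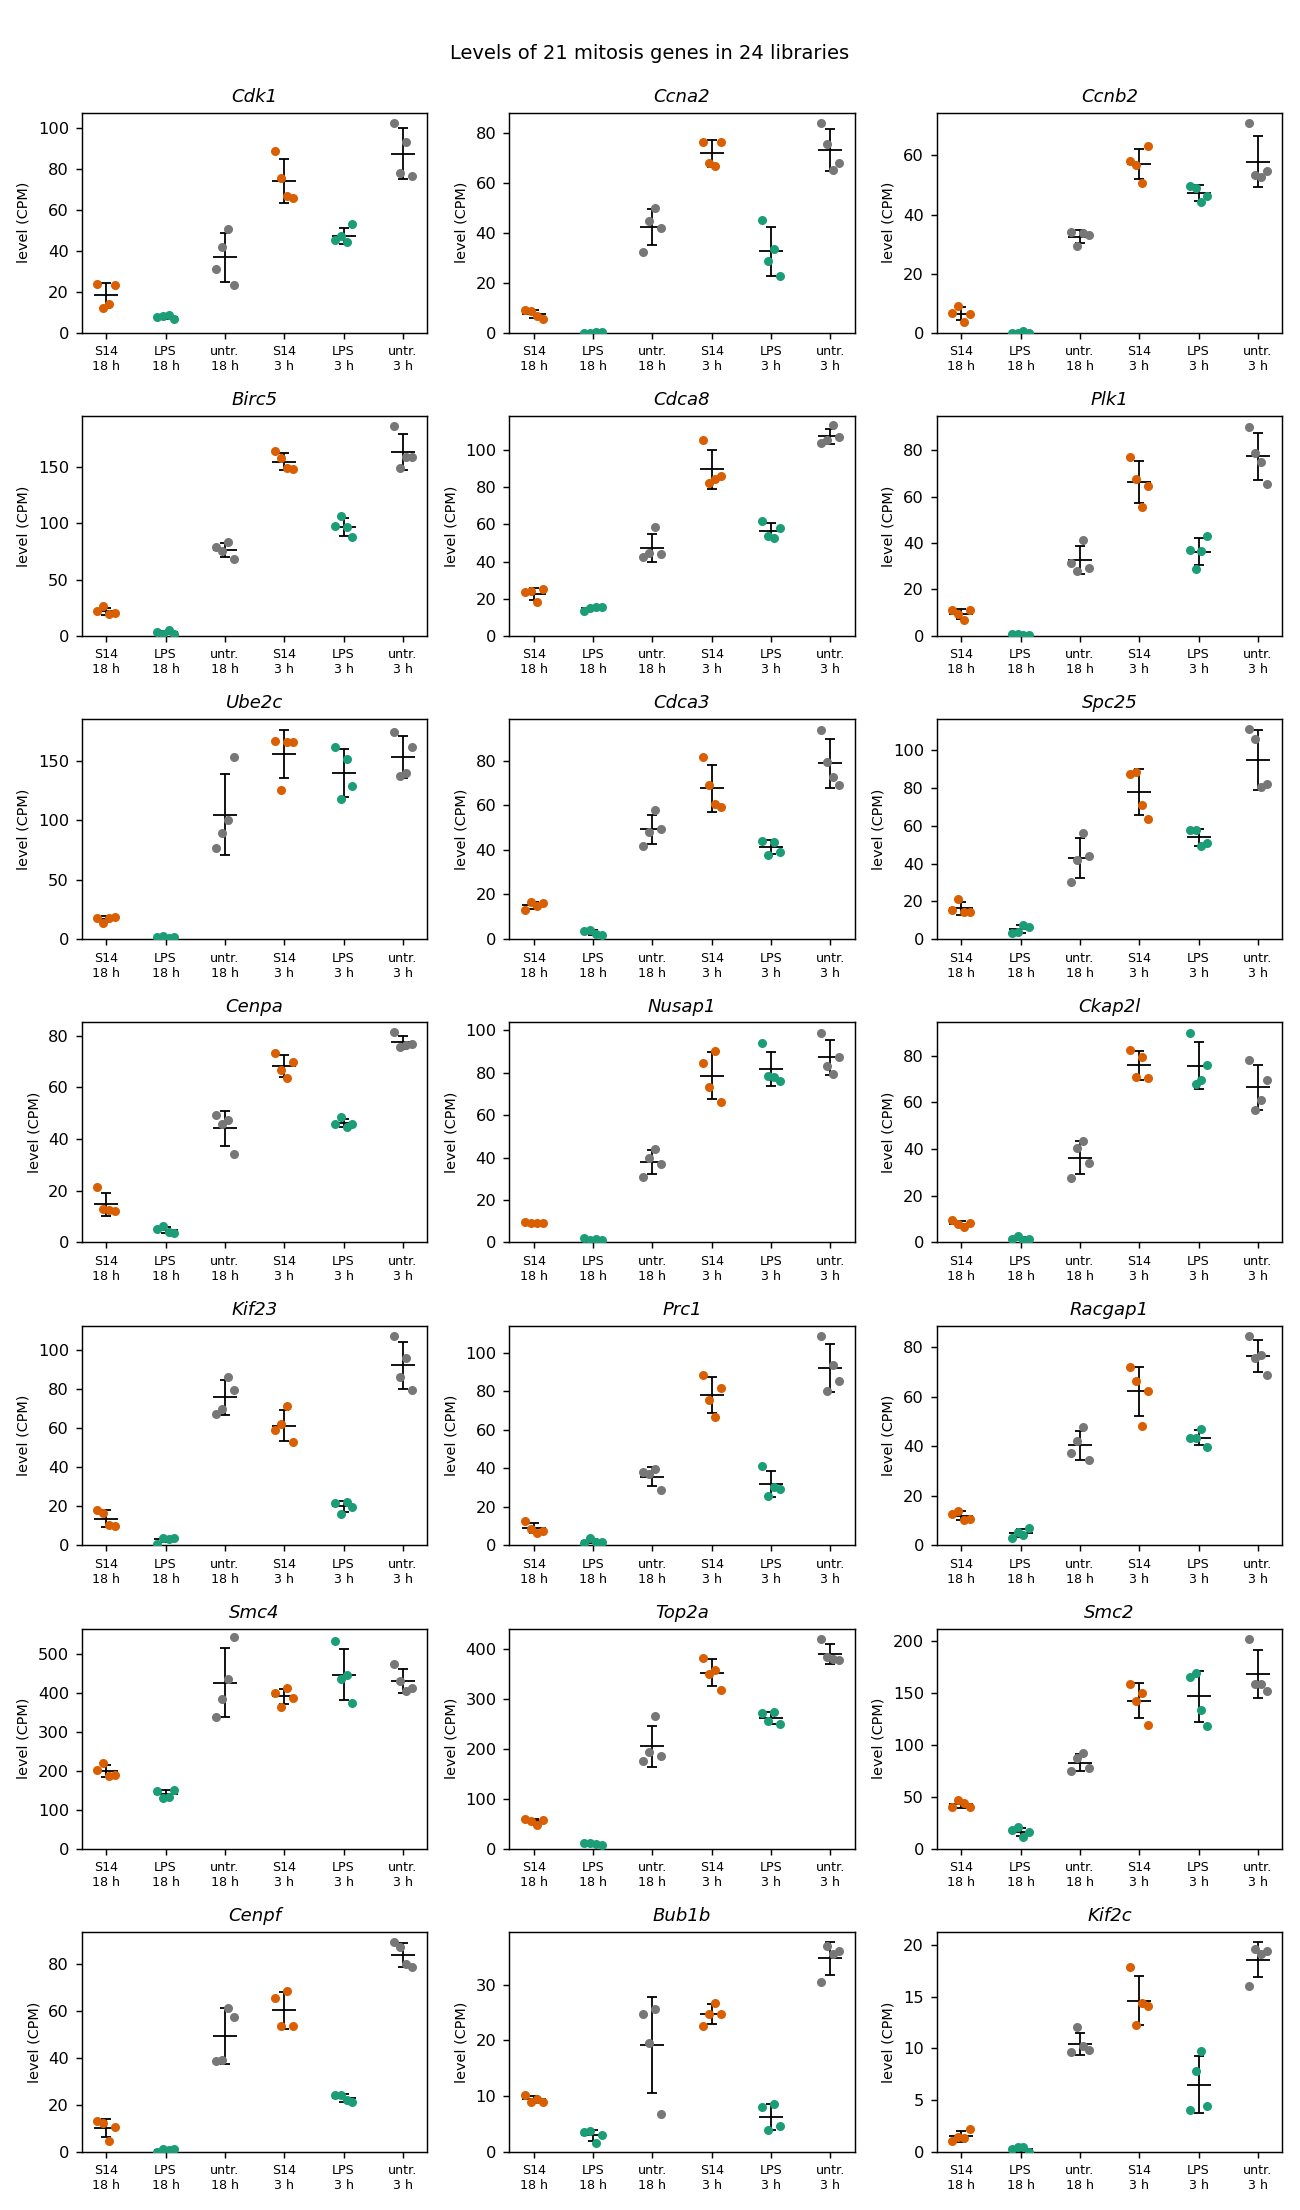
Levels (CPM, y axis, each panel with its own scale from 0) of 21 mitosis genes in every library (points) of the 6 groups (x axis), with the mean and SD of 4 libraries, TMM scaling. The S14 and LPS groups at 18 h have the lowest means in every panel but that of Bub1b, where LPS at 3 h is lower than S14 at 18 h, and the LPS group at 3 h lies below the untreated group for Kif23, Cenpf and Bub1b and overlaps it for Ube2c, Nusap1 and Ckap2l.

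Some members share sequence with other genes. By the GENCODE M21 annotation 15 of the 51 share exon bases with another gene. Opposite-strand cases include Kif20a with Cdc23 (1271 bases), Ncapg with Lcorl (944), Prc1 with Rccd1 (911), Ube2c with Tnnc2 (592) and Ccna2 with Exosc9 (510). On the same strand Foxm1 shares bases with Tex52 (144) and Gm44596 (97), Ncapd2 with Scarna10 (237) and Gm28967 (235), and Top2a with Gm23451 (122). The last 300 bases of Ccnb1, Ndc80 and Pbk match a pseudogene at 95% identity or more over at least 75 bases, so their counts are less certain.

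Other mitosis genes, a list of 67 of which 65 were tested, gave these counts. At 18 h 56 fell and 1 rose with S14 (median -1.45), and 60 fell and 1 rose with LPS (median -3.06, below which Kif14 and Troap, at 0 reads with LPS, lie also when set to 3 reads a group). At that time 11.6% of all genes fell and 12.6% rose with S14, and 28.3% fell and 27.3% rose with LPS. At 3 h 4 fell and 2 rose with S14 (median -0.24), where 6.2% and 9.05% of all genes did, while 43 fell and 5 rose with LPS (median -0.79), where 30.2% and 25.3% of all genes did. Pimreg, a regulator of the metaphase to anaphase step, averaged 2.55 ± 0.778 CPM with S14, against 19.6 ± 1.01 CPM untreated at 18 h (-2.93 ± 0.26, adjusted p = 1.13e-11). Kif14, a kinesin of cytokinesis, had 0 reads in all 4 LPS libraries at 18 h, against 10.0 ± 1.62 CPM untreated. With S14 at 3 h Aspm, a spindle pole protein, fell (-0.71 ± 0.2, adjusted p = 0.00766) and Trip13, which takes the checkpoint complex apart, rose (0.7 ± 0.21, adjusted p = 0.0184). Neither was called after spike-in scaling, nor was Aspm without S14 replicate 4 (-0.6, adjusted p = 0.0557) or Trip13 without untreated replicate 3 (0.63, adjusted p = 0.0714) or 4 (0.67, adjusted p = 0.0534) or S14 replicate 3 (0.64, adjusted p = 0.0633).

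The 40 genes of DNA replication, which comes before mitosis in the cycle, were all tested. With S14 at 18 h 28 fell and none rose (median -0.71), where 11.6% of all genes fell and 12.6% rose. With LPS at 18 h 36 fell and 2 rose (median -1.72), where 28.3% of all genes fell and 27.3% rose. At 3 h 4 fell with S14 and 19 fell and 6 rose with LPS, where 6.2% of all genes fell with S14, and 30.2% fell and 25.3% rose with LPS. Rrm2, a subunit of the enzyme that makes deoxynucleotides, averaged 8.85 ± 2.38 CPM with S14, against 42.4 ± 7.40 CPM untreated at 18 h (-2.26 ± 0.19, adjusted p = 4.49e-12), and with LPS it averaged 0.936 ± 0.667 CPM (-5.48 ± 0.29, adjusted p = 7.05e-20). Cdt1, which licenses replication origins, fell at 3 h with S14 (-0.74 ± 0.15, adjusted p = 0.000296, not called after spike-in scaling) and with LPS (-1.92 ± 0.17, adjusted p = 6.11e-13).

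Of 33 cell cycle control genes, which include the D cyclins, E2F factors and Cdk inhibitors, 11 fell and 3 rose with S14 at 18 h and 14 fell and 9 rose with LPS at 18 h. At 3 h 3 fell and 2 rose with S14, where 6.2% of all genes fell and 9.05% rose. With LPS at 3 h 17 of the 33 fell, a larger share than the 30.2% of all genes, and 7 rose, where 25.3% of all genes did. Over all genes 11.6% fell and 12.6% rose with S14 and 28.3% fell and 27.3% rose with LPS at 18 h, so that the share that rose with LPS was near that of all genes, as were both shares with S14 at 3 h. Ccnd1, the D cyclin that growth factors induce, averaged 66.4 ± 8.25 CPM with S14, against 165 ± 24.4 CPM untreated at 3 h (-1.32 ± 0.16, adjusted p = 5.94e-07). Ccnd2 averaged 1064 ± 27.9 CPM with LPS, against 23.7 ± 3.48 CPM untreated at 3 h (5.48 ± 0.14, adjusted p = 5.25e-29). Cdkn1a, the Cdk inhibitor p21, was named for S14 and LPS after its values were seen. At 18 h it averaged 322 ± 10.4 CPM with S14, 968 ± 136 CPM with LPS and 187 ± 24.6 CPM untreated. The rise with S14 (0.78 ± 0.09, adjusted p = 3.92e-09) was not called with spike-in scaling, at -0.25, or 0.34 without untreated replicate 4, and that with LPS was 2.37 ± 0.09 (adjusted p = 7.38e-25). At 3 h it averaged 1065 ± 45.0 CPM with S14, 2094 ± 168 CPM with LPS and 515 ± 30.3 CPM untreated, higher with S14 (1.05 ± 0.09) and with LPS (2.02 ± 0.09, adjusted p = 5.64e-13 and 2.66e-23).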

How the data were processed

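Polyadenylated RNA of mouse macrophages was sequenced from the 3′ end in 24 libraries made from 150 ng RNA with 15 PCR cycles, per the labels' protocols. The submitters' processing notes name cutadapt 1.18, FastQC, STAR 2.6.1a, featureCounts 1.6.4 of Subread, DESeq2 and the genome build GRCm38, and the sources used here do not give the strand setting of the counting. The main table holds whole read counts per gene as deposited by the authors, and a second table holds the authors' deposited signal, read counts divided by size factors, per the file headers and values. Whole reads were recovered from the second table (100% of values within 1e-06 of a whole number) and served as an alternative, with 14 of the 51 members identical in both tables and 1 differing by over 10%. Reads of 92 ERCC and 22 SIRV spike-in RNAs stayed out of the library sizes and served for a second scaling. Library totals ran from 3334182 to 6350251 reads, and 7 ribosomal RNA genes took 0.132% to 0.469% of them.

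Counts were tested with edgeR 4.0.16 in R 4.3.3: TMM scaling, genes kept by filterByExpr (minimum count 10, minimum total 15), a robust quasi-likelihood fit of all 24 libraries with 18 residual degrees of freedom, and Benjamini-Hochberg adjustment over 11717 genes with a threshold of 0.05. Levels are CPM of the TMM-scaled library. The alternatives were DESeq2 1.42.0, its size factors in edgeR, no filter, a fit of only the groups compared, the second table, spike-in scaling with and without untreated replicate 4 at 18 h, a block for the replicate number, and leaving out each library in turn.

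The members and gene lists were chosen with earlier results of these data known. Genes were named by a rule: in each role the 3 members with the highest mean CPM over all libraries, in each comparison the called members with the largest and smallest log2 fold change, and all members called against the majority where 3 or fewer were. Of other lists, the 2 called genes with the largest absolute change per comparison could be named. Groups follow the labels. Sequences are RefSeq windows on GRCm38.p6, and shared exons and pseudogene copies were looked up in the GENCODE M21 annotation.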

Additional observations from a re-analysis of the deposited data

Results flagged for a closer look

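In 11 of 156 groups of 4 values of the 25 named members and their sums, 1 library stood apart from the other 3 by Dixon's test at the 95% level, a test that flags about 1 in 20 groups by chance. The library that stood high was at 0.448 CPM for Ccnb2 with LPS at 18 h, 2.77 CPM for Ckap2l with LPS at 18 h, 21.3 CPM for Cenpa with S14 at 18 h and 58.7 CPM for Cdca8 in untreated cells at 18 h. At 3 h it was at 115 CPM for Tpx2 and 93.8 CPM for Nusap1 with LPS, and at 70.9 CPM for Ccnb2, 419 CPM for Top2a and 203 CPM for Smc2 in untreated cells. The library that stood low was at 126 CPM for Ube2c with S14 at 3 h and at 16.0 CPM for Kif2c in untreated cells at 3 h.

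The responses differed between the times by the interaction test for 47 members with S14 and for 46 members with LPS, all lower at 18 h. Among the named ones the difference in log2 response was -2.67 for Ube2c and -0.72 for Smc2 with S14, and -7.54 for Ccnb2, -5.63 for Ube2c, -4.23 for Cenpe and -0.74 for Cdca8 with LPS.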

How the results depend on the processing

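The counts at 3 h and over time in untreated cells moved with the scaling. With spike-in scaling the members called were 0 for S14 at 3 h, 12 for LPS at 3 h, 8 for S14 against LPS at 3 h and 1 for the change of untreated cells over time, and without untreated replicate 4 at 18 h they were 0, 21, 17 and 10. For S14 at 3 h no filter gave 4 members and a fit of only the groups compared gave 13, against 2. Leaving out each library in turn gave 1 to 3 members for S14 at 3 h, 38 to 40 for LPS at 3 h, 50 for S14 at 18 h, 49 to 50 for LPS at 18 h, 33 to 36 and 46 to 48 for S14 against LPS at 3 h and 18 h, 38 to 45 for untreated cells over time, and 45 to 48 and 46 to 48 for the time dependence of the S14 and LPS responses. Values that changed sign were Pttg1 with S14 at 18 h (-0.43 and -0.07 in the spike-in scalings) and Cdkn1a with S14 at 18 h (-0.25 with spike-in scaling, 0.34 without untreated replicate 4), and Tpx2 with LPS at 18 h was -0.56 to 0.0 without 1 LPS library (lowest without replicate 2, highest without replicate 4). The cause was not tested. The labels do not say that a replicate number marks a shared source, and the pairing check did not reach its threshold in every pair: same-numbered libraries correlated at -0.101 to 0.143 over 60 pairs, 1 of them over 0.1, and 14 of 24 libraries correlated best with their own number, a hint from the data and not from the design. With the replicate block 36 members were called for S14 against LPS at 3 h, against 37, the other 8 counts of members were unchanged, and among the members called with S14 at 3 h Pttg1 took the place of Cenpf. The reads of the second table called 1789 genes for S14 at 3 h and 2754 at 18 h, and 6400 and 6384 for LPS, against 1786, 2844, 6500 and 6517. Members with few reads, such as Cks2, limit what can be seen at this depth.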

Other observations

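In some libraries most of the mitosis genes lay on one side of the group mean. Of the 51 members, 45 were above it in S14 replicate 1 at 3 h, 44 in untreated replicate 3 at 18 h and 44 in untreated replicate 1 at 3 h, 38 in LPS replicate 1 at 3 h and 37 in LPS replicate 2 at 18 h. Other libraries were near an even split, with 27 above the mean in LPS replicate 3 at 3 h, 26 in LPS replicate 1 at 18 h and 25 in untreated replicate 4 at 18 h. In untreated replicate 1 at 18 h 13 were above it. These libraries were picked after the values were seen, and shares over all genes are not given here.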
